A study of Mus musculus with 9 samples.

Results

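The genes described here are 45 genes of G2 and mitosis, taken by name from the 35498 genes to which transcript counts were summed. All 45 were present in the tables and all 45 passed the filter on low counts. RNA was sequenced from whole cortical tissue of C57Bl/6 mouse embryos at E13.5, in 9 libraries that fall into 3 groups of 3. The WT group is labelled Smarca1 +/+; Cre -/-, the Smarca1 KO group Smarca1 -/-; Cre -/-, and the DKO group Smarca1 -/-; Cre +/-. The design text names the DKO as the double knockout of Smarca5 and Smarca1, so the loss of Smarca1 is shared by the Smarca1 KO and DKO groups, and the Cre allele is carried by the DKO group alone. The promoter that drives the Cre, the Smarca5 alleles of the Cre-negative groups and whether each replicate is its own embryo are not stated in the labels. Smarca1 and Smarca5 encode the ATPases of the ISWI complexes, which slide and space nucleosomes.

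Summed gene counts ranged from 27466046 to 46007527 per library. Smarca5 RNA was 84.4, 79.2 and 77.2 CPM (counts scaled to a common library total, here by TMM) in DKO replicates 1 to 3, 245.8, 243.1 and 212.2 in Smarca1 KO and 267.4, 270.7 and 262 in WT. Smarca1 RNA was 37.9, 38.8 and 38.4 CPM in DKO, 42.3, 35.3 and 43.8 in Smarca1 KO and 37.8, 36.4 and 37.3 in WT. The Smarca1 level was thus no lower in the libraries labelled Smarca1 KO than in WT, and a sum over the whole gene does not check a deletion that leaves the RNA in place, so "Smarca1 KO" is used throughout as the label. Markers of radial glia, intermediate progenitors and cortical neurons were detected in every library. P-values set a difference between groups against the spread between these libraries, which may be technical. In the main analysis that spread is estimated over all 9 libraries, so each comparison also carries the spread of the third group.

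Cells that pass from G2 into mitosis are driven by Cdk1 bound to A-type and B-type cyclins. Polo and Aurora kinases then build the spindle, condensins and topoisomerase II shape the chromosomes, the checkpoint holds anaphase until kinetochores are attached, and the anaphase-promoting complex (APC/C) destroys the cyclins before the cell divides in cytokinesis. The RNAs of these genes peak together late in the cell cycle. In the embryonic cortex the dividing cells of the neuronal lineage are radial glia, which line the ventricle, and intermediate progenitors. Whole tissue also holds blood, vessel, meningeal and microglial cells. The level of this module in whole tissue follows both the number of cycling cells, of whatever type, and the RNA each of them holds. These cannot be told apart in bulk samples.

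Promoters of late cell cycle genes are known for 2 short elements, the cell cycle genes homology region (CHR), bound by the MuvB complexes, and the CCAAT box, bound by NF-Y. RefSeq promoter windows (GRCm38.p6, from 250 bases before to 50 bases after the annotated start, 300 bases each) were found for 37 of the 45 genes, in 39 windows. The 8 genes without a window were Shcbp1, Tpx2, Aurkb, Smc4, Ccna2, Cdc25c, Incenp and Kif20a. A CHR (TTTGAA or TTCGAA on either strand) lay in 31 of the 39 windows (79.5%), against 6316 of all 32851 windows (19.2%). A CCAAT box (CCAAT on either strand) lay in 30 (76.9%), against 12289 (37.4%), and both lay in 27 (69.2%), against 2472 (7.52%). The letters of the CHR and the CCAAT box do not overlap each other in the windows below. A match of these letters is a description of the sequence and not a binding site. Whether the letters go with a change in level was not tested. The windows of Ccnb2, which fell in DKO, of Ccnb1, its close relative that did not pass the test, and of Plk1 and Cdc20 are shown 5′ to 3′ on the gene's strand, with CHR and CCAAT letters in capitals.
Ccnb2, chr9:70421505-70421804, minus strand: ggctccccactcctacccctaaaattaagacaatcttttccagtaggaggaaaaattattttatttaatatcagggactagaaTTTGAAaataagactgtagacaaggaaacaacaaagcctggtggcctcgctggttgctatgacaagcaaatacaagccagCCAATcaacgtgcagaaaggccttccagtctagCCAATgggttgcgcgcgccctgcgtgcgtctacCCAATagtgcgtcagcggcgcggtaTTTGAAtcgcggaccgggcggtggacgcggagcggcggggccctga
Ccnb1, chr13:100786437-100786736, minus strand: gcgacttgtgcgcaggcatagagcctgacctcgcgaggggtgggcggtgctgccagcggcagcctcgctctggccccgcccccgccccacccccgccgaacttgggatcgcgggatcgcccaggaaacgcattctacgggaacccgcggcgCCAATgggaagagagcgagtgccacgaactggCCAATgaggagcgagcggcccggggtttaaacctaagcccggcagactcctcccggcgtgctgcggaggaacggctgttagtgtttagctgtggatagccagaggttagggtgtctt
Plk1, chr7:122159185-122159484, plus strand: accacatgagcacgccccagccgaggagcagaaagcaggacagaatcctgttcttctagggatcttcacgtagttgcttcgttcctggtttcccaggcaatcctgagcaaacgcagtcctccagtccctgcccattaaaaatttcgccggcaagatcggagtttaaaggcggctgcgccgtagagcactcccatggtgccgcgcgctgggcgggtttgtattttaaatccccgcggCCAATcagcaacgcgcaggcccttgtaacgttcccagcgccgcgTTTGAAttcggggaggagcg
Cdc20, chr4:118437294-118437593, minus strand: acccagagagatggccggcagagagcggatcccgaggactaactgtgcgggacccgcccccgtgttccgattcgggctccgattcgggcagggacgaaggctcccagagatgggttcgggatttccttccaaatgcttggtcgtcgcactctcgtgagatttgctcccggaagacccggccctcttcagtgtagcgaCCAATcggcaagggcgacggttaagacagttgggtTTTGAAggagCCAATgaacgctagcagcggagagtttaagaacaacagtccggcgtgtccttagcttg
Counted from the annotated start at 0, Ccnb2 held a CHR at -167 and another at 4, with CCAAT boxes at -87, -54 and -21. Ccnb1 held CCAAT boxes at -99 and -67, and the CHR letters searched were not in its window. Plk1 held a CCAAT box at -14 and a CHR at 30, and Cdc20 held CCAAT boxes at -53 and -8 with a CHR at -18.

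The first comparison asked how the module differed between DKO and WT. Shcbp1 and Ccnb2 fell in DKO, and no gene of the module rose, at an adjusted p under 0.05 in edgeR's quasi-likelihood test. These are 2 of 45 genes lower, beside 6.35% of all 15773 genes tested that were called lower and 5.61% called higher. Most of the other genes were slightly lower without passing the test: 42 of 45 had a log2 fold change below 0, and the median was -0.158, beside 0.00785 over all genes tested. In 18 of the 45 all 3 DKO libraries were below all 3 WT libraries and in 0 all were above, beside 20.4% and 20.9% of all genes. At an unadjusted p under 0.05 there were 5 genes lower and 0 higher, beside 14.9% and 16.1% of all genes.

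The comparison of DKO with Smarca1 KO, which holds the Smarca1 genotype constant, called the same 2 genes lower and 0 higher, beside 2.66% of all genes called lower and 1.73% called higher. Here 5 of the 45 log2 fold changes were below 0 and the median was 0.11, beside 0.00405 over all genes. All DKO libraries were below all Smarca1 KO libraries in 2 genes (Shcbp1 and Ccnb2) and above them in 2 (Nek2 and Ube2c), beside 10.7% and 9.72% of all genes. At an unadjusted p under 0.05 there were 2 genes lower and 3 higher, beside 9.57% and 8.84% of all genes. DESeq2 called 1 gene higher, Ncapd2, beside 2.9% of all genes it tested.

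Between Smarca1 KO and WT 0 of 45 genes passed the test in either direction, beside 0.197% of all genes called lower and 0.139% called higher. At an unadjusted p under 0.05 there were 27 genes lower and 0 higher, beside 9.55% and 9.33% of all genes. DESeq2 called 9 lower (Cdc25c, Plk1, Nek2, Cdc20, Ube2c, Incenp, Prc1, Anln and Smc2) and 0 higher, beside 3.33% and 1.83% of all genes it tested. The log2 fold change was below 0 in 44 of the 45 genes, with a median of -0.267 beside 0.0103 over all genes. All 3 libraries labelled Smarca1 KO were below all 3 WT libraries in 37 of the 45 genes and above them in 0, beside 13.6% and 12.5% of all genes. The 3 comparisons share their libraries, so each gene's values are given side by side and not as independent evidence.

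**Figure D1:**
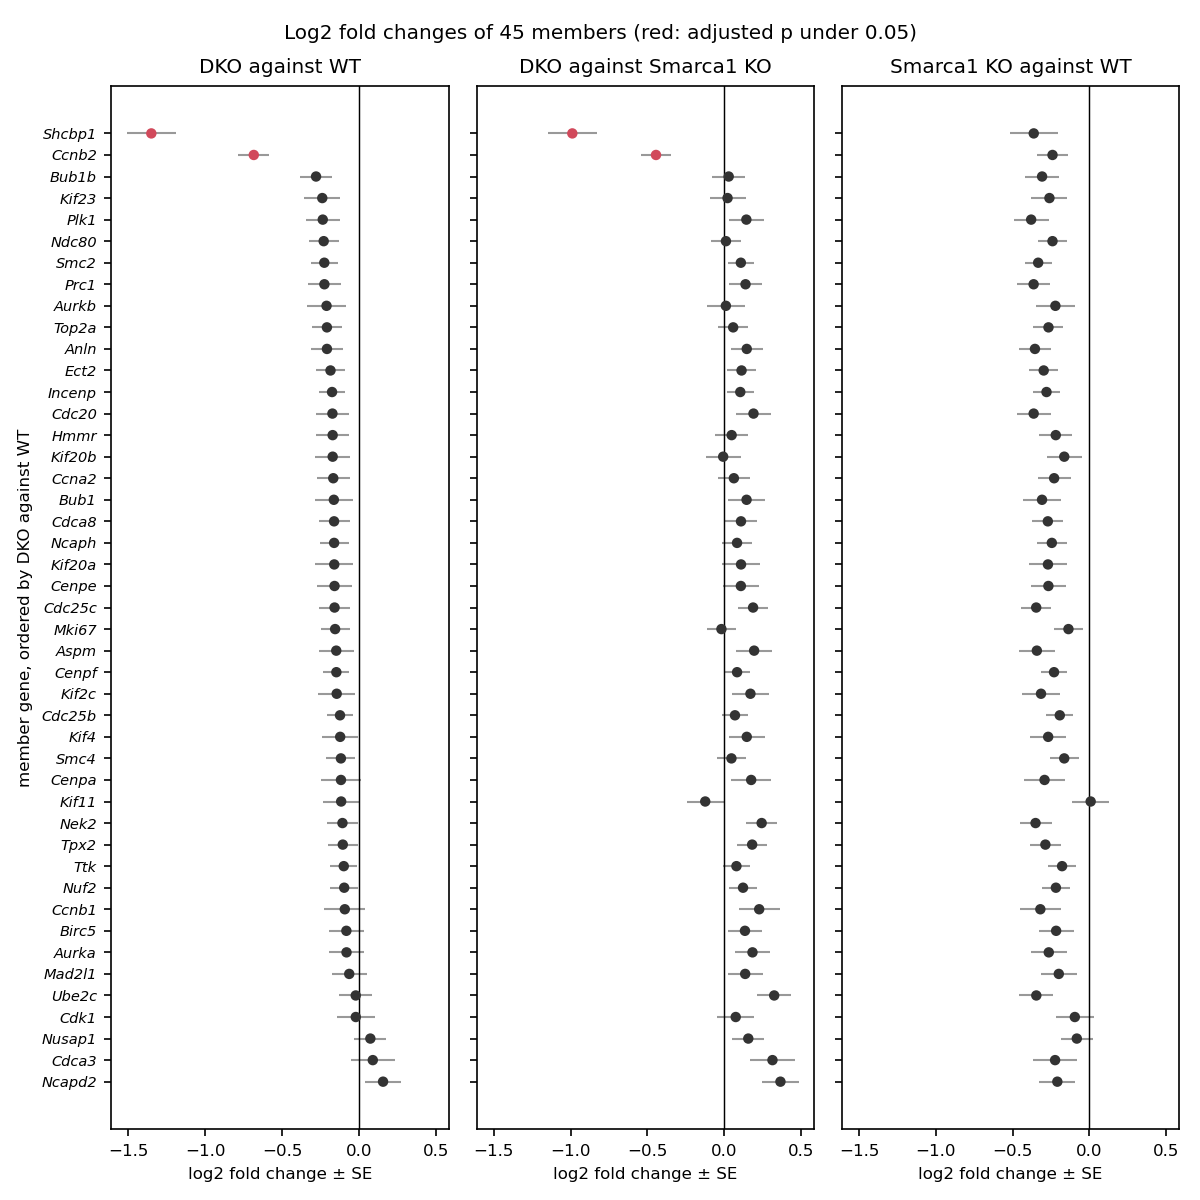
Log2 fold change ± SE (edgeR) of each of the 45 genes in DKO against WT, DKO against Smarca1 KO and Smarca1 KO against WT, ordered by the first; red points have an adjusted p under 0.05. Shcbp1 (-1.35 and -0.99) and Ccnb2 (-0.68 and -0.44) are the red points in both DKO comparisons, and no point is red in Smarca1 KO against WT.

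One library stood apart from the rest. Smarca1 KO replicate 3 held the lowest level of all 9 libraries in 42 of the 45 genes, beside 19.2% of all genes tested. The exceptions were Ccnb2, Kif11 and Shcbp1, which were lowest in DKO replicate 3. Against the mean of Smarca1 KO replicates 1 and 2, replicate 3 was lower in every gene, with differences from -32.3% (Ccnb1) to -19.7% (Ttk) and a median of -24.9%. Without this library the median log2 fold change was -0.132 in Smarca1 KO against WT and -0.00221 in DKO against Smarca1 KO, and the number of genes called lower in DKO against WT was 13 in place of 2, beside 10.4% of all genes. The 13 were Ccnb2, Plk1, Bub1b, Aurkb, Incenp, Ndc80, Kif23, Prc1, Anln, Ect2, Shcbp1, Top2a and Smc2. Smarca1 KO replicate 3 is in neither group of DKO against WT, so the median log2 fold change there could hardly move. It was -0.161 without this library and -0.158 with it.

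The summed level of the 45 genes was 5695, 5617 and 5735 CPM in WT replicates 1 to 3, 5169, 5284 and 3930 in Smarca1 KO and 5621, 4980 and 4824 in DKO. DKO replicate 1 lay inside the WT range, and the other DKO libraries lay below it. The highest library for a gene was a WT library in 34 genes, DKO replicate 1 in 10 and Smarca1 KO replicate 2 in 1. The median coefficient of variation over the 3 libraries of a group was 2.89% in WT, 7.93% in DKO and 16.2% in Smarca1 KO.

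**Figure D2:**
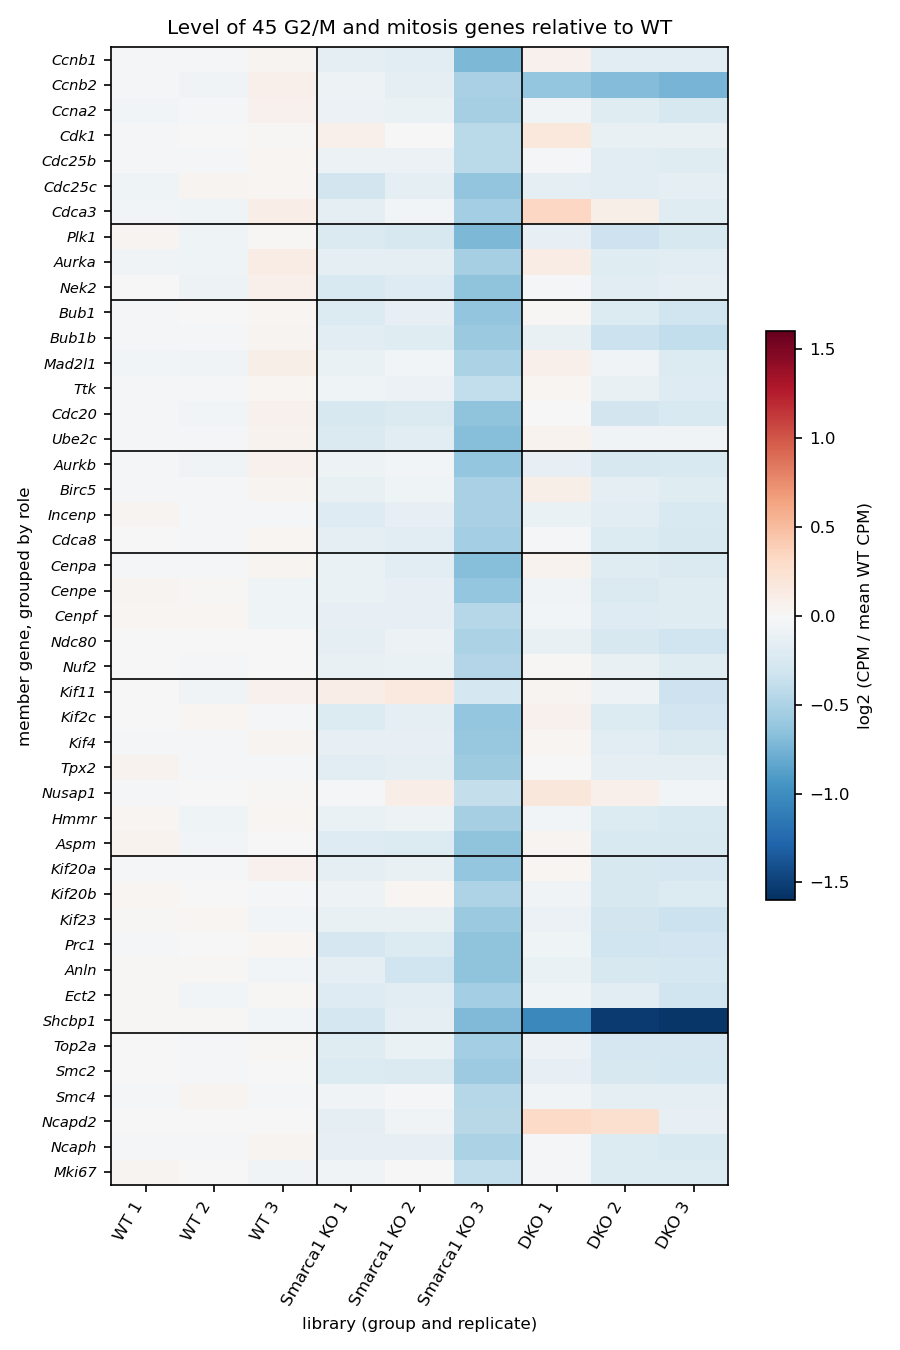
Level of each gene (rows, grouped by role) in each library (columns), as log2 of CPM over the mean WT CPM; blue is lower and red higher than WT. The column of Smarca1 KO replicate 3 is blue in every row, and the rows of Shcbp1 and Ccnb2 are the darkest in the 3 DKO columns.

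Ccnb2 was the member of the cyclin and Cdk1 group that changed. It encodes cyclin B2, a B-type cyclin that activates Cdk1 (ENSMUSG00000032218.7, GRCm38 chromosome 9, 70407692 to 70421547, minus strand). Its level was 52.1, 51.5 and 56.6 CPM in WT replicates 1 to 3, 50.2, 47.9 and 37.2 in Smarca1 KO and 34.8, 32.9 and 32.0 in DKO. Every DKO library was below every other library. Ccnb2 fell by 37.8% in DKO (33.2 ± 1.41 CPM, SD, n = 3) against WT (53.4 ± 2.81), a log2 fold change of -0.68 with an SE of 0.0995 (edgeR adjusted p = 0.00484). Against Smarca1 KO (45.1 ± 6.93) Ccnb2 fell by 26.5%, a log2 fold change of -0.44 (SE 0.0998, edgeR adjusted p = 0.0394). This second call was lost in 13 of 17 alternative fits, among them those without any 1 of the 3 DKO, the 3 WT or the first 2 Smarca1 KO libraries, with log2 fold changes from -0.565 to -0.182 over all 17 (adjusted p from 0.00206 to 0.578). In Smarca1 KO against WT the log2 fold change of Ccnb2 was -0.24 (adjusted p = 0.237). Ccnb2 has 1 transcript in the tables and 0% of its 31-base words occur in another gene's transcripts.

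Ccnb1, the other B-type cyclin gene of the module and the major Cdk1 partner, did not pass the test. It was 163.5, 161.6 and 171 CPM in WT, 149.5, 147.2 and 100.4 in Smarca1 KO and 173.6, 146.1 and 145.8 in DKO, with DKO and WT overlapping. The log2 fold change was -0.09 (SE 0.133) in DKO against WT and 0.23 (SE 0.134) in DKO against Smarca1 KO. Ccnb1 shares 27.8% of its 31-base words with other genes, mostly Ccnb1 pseudogenes, so its counts are less certain. The same limit holds for the other 10 genes with over 5% of such words shared: Cdc20 and Kif20a (26.7% each), Ube2c (25%), Kif4 (15.7%), Plk1 (14.8%), Cdc25c (13.2%), Prc1 (12.5%), Ccna2 (12%), Ndc80 (8.02%) and Kif11 (6.59%). The ratio of Ccnb2 to Ccnb1, both as TPM (a level per length, scaled to a fixed total), was 0.414, 0.44 and 0.46 in WT, 0.471, 0.441 and 0.475 in Smarca1 KO and 0.267, 0.312 and 0.311 in DKO. The DKO ratios lay below those of all 6 other libraries, Smarca1 KO replicate 3 included.

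Cdk1, the kinase itself, was 79.5, 81.7 and 82.3 CPM in WT, 85.8, 81.5 and 60.4 in Smarca1 KO and 91.1, 74.5 and 74.7 in DKO. Its groups overlapped, with a log2 fold change of -0.02 (SE 0.122) in DKO against WT and 0.08 (SE 0.122) against Smarca1 KO. Cdc25c, a phosphatase that removes inhibitory phosphates from Cdk1, was 38.6, 41.6 and 41.4 CPM in WT, 33.0, 36.3 and 26.2 in Smarca1 KO and 36.6, 35.8 and 36.5 in DKO. Its DKO libraries lay close together below all WT libraries, without passing the test (log2 fold change -0.16, edgeR adjusted p = 0.302). With the 2 groups fitted alone Cdc25c was called lower in DKO (edgeR adjusted p = 0.046), as were 11.1% of all genes. The other genes of this group, the cyclin A2 gene Ccna2, the phosphatase gene Cdc25b and Cdca3, had log2 fold changes of -0.17, -0.12 and 0.09 in DKO against WT.

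**Figure D3:**
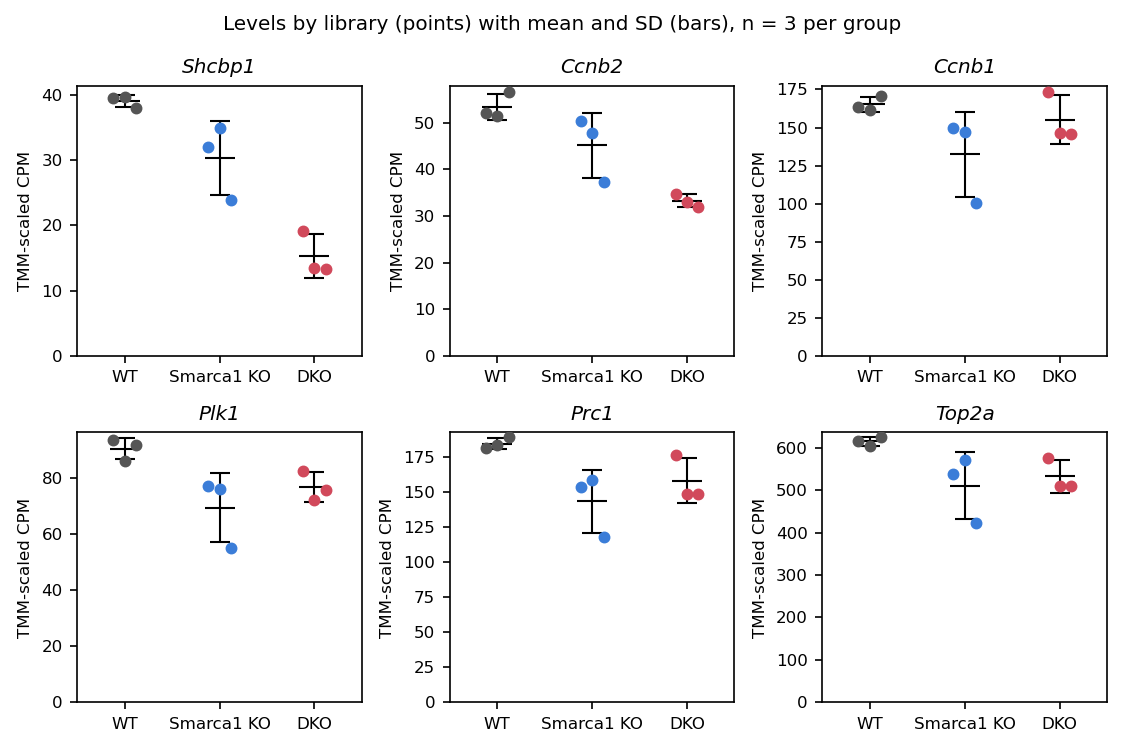
TMM-scaled CPM of 6 genes in each library (points), with the mean and SD of each group of 3 (bars); each axis starts at 0. The DKO points of Shcbp1 and Ccnb2 lie below those of both other groups, whereas the DKO points of Ccnb1, Plk1, Prc1 and Top2a lie above or among the Smarca1 KO points.

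Shcbp1 had the largest fold change of the 45 genes in both DKO comparisons. It encodes an SHC-binding protein that associates with the central spindle and midbody in dividing cells (ENSMUSG00000022322.8, GRCm38 chromosome 8, 4735976 to 4779567, minus strand). Its level was 39.4, 39.6 and 38.0 CPM in WT, 32.1, 34.9 and 23.9 in Smarca1 KO and 19.1, 13.47 and 13.3 in DKO, and no group overlapped another. Shcbp1 fell by 60.8% in DKO (15.3 ± 3.31 CPM, SD, n = 3) against WT (39.0 ± 0.902), a log2 fold change of -1.35 with an SE of 0.16 (edgeR adjusted p = 0.00221). Against Smarca1 KO (30.3 ± 5.7) Shcbp1 fell by 49.6%, a log2 fold change of -0.99 (SE 0.161, edgeR adjusted p = 0.0106). This second call was lost when the 2 groups were fitted alone (adjusted p = 0.061) and with a covariate of Y-linked RNA (adjusted p = 0.253), which also ended the calls of Shcbp1 and Ccnb2 in DKO against WT. In Smarca1 KO against WT the log2 fold change was -0.36 (adjusted p = 0.25).

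The main protein-coding transcript of Shcbp1 held 76.9% of the gene's counts. It was 28.7, 31.5 and 27.1 TPM in WT, 24.3, 26.4 and 18.2 in Smarca1 KO and 14, 8.68 and 8.43 in DKO. The gene's order of groups was thus also that of its coding transcript. A transcript annotated as retaining an intron held 12.5% of the counts. It was 3.5, 3.43 and 3.99 TPM in WT, 2.66, 3.03 and 2.56 in Smarca1 KO and 1.97, 2.02 and 2.1 in DKO. Another such transcript held 9.96%, and its groups were less separated. It was 4.51, 1.98 and 3.61 TPM in WT, 2.58, 1.76 and 1.7 in Smarca1 KO and 1.74, 1.66 and 1.58 in DKO. Of the 31-base words of Shcbp1 3.2% occur in other genes.

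The other genes of cytokinesis did not pass the test. Prc1, which bundles the microtubules of the central spindle, was 181.5, 183.5 and 189.1 CPM in WT, 153.7, 158.8 and 117.9 in Smarca1 KO and 176.6, 148.6 and 149.1 in DKO. All DKO and all Smarca1 KO libraries of Prc1 were below all WT libraries, and the log2 fold change was -0.22 in DKO against WT (edgeR adjusted p = 0.183) and -0.36 in Smarca1 KO against WT (adjusted p = 0.148). Anln, the anillin gene of the contractile ring, was 62.7, 62.5 and 60.2 CPM in WT, 55.3, 49.7 and 39.7 in Smarca1 KO and 57.6, 52.0 and 51.0 in DKO. The order was as in Prc1, with all WT libraries highest. Ect2 and the kinesin genes Kif23, Kif20a and Kif20b had log2 fold changes of -0.18, -0.24, -0.16 and -0.17 in DKO against WT. Against Smarca1 KO the same 4 lay at 0.11, 0.02, 0.11 and -0.01.

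Among the mitotic kinases, Plk1, the Polo kinase of mitotic entry and spindle assembly, was 93.2, 86.0 and 91.6 CPM in WT, 77.1, 75.8 and 55.0 in Smarca1 KO and 82.5, 72.0 and 75.7 in DKO. WT libraries were highest, and DKO overlapped Smarca1 KO. Its log2 fold change of -0.38 in Smarca1 KO against WT was the lowest of the 45 genes in that comparison (edgeR adjusted p = 0.151), and in DKO against WT it was -0.24 (adjusted p = 0.187). Aurka, the Aurora kinase of the centrosome, and Nek2, a kinase of centrosome separation, had log2 fold changes of -0.08 and -0.11 in DKO against WT and 0.18 and 0.24 against Smarca1 KO.

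The spindle checkpoint and APC/C genes held none that passed. Bub1b (BubR1), a checkpoint protein that restrains the APC/C, was 143.7, 143.4 and 150.9 CPM in WT, 129, 127.5 and 96.9 in Smarca1 KO and 134.9, 115.4 and 110.8 in DKO. All DKO libraries were below all WT libraries, and after Shcbp1 and Ccnb2 this was the largest fall fitted in DKO against WT (log2 fold change -0.28, edgeR adjusted p = 0.113). Ube2c, the ubiquitin-conjugating enzyme of the APC/C, was 105.9, 105.2 and 112 CPM in WT, 91.6, 95.4 and 66.9 in Smarca1 KO and 111.7, 103.6 and 103.3 in DKO. Its DKO libraries overlapped WT and were above all Smarca1 KO libraries (log2 fold change 0.33, edgeR adjusted p = 0.145). The checkpoint genes Bub1, Mad2l1 and Ttk and the APC/C activator gene Cdc20 had log2 fold changes between -0.17 and -0.06 in DKO against WT.

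In the chromosomal passenger complex, which corrects faulty attachments of chromosomes to the spindle, the kinase gene Aurkb was 68.0, 66.3 and 72.5 CPM in WT, 65.3, 66.7 and 45.03 in Smarca1 KO and 63.0, 57.7 and 58.0 in DKO. All DKO libraries of Aurkb were below WT, with a log2 fold change of -0.21 (edgeR adjusted p = 0.28). The scaffold gene Incenp and the subunit genes Cdca8 (borealin) and Birc5 (survivin) had log2 fold changes of -0.17, -0.16 and -0.08 in DKO against WT. The 5 centromere and kinetochore genes (Cenpa, the centromeric histone, Cenpe, Cenpf, Ndc80 and Nuf2) lay between -0.23 (Ndc80) and -0.10 (Nuf2) in DKO against WT, between -0.29 and -0.22 in Smarca1 KO against WT and between 0.01 and 0.18 in DKO against Smarca1 KO.

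Of 7 spindle motors and spindle binders none passed. Kif11, the kinesin that pushes spindle poles apart, was 148.7, 143.1 and 156.1 CPM in WT, 160.3, 167 and 122.9 in Smarca1 KO and 153.6, 141.3 and 118.8 in DKO. Its log2 fold change of 0.01 (SE 0.119) was the only one above 0 in Smarca1 KO against WT, with overlapping groups. Tpx2, Kif2c, Kif4, Hmmr and Aspm, a spindle pole gene known for its part in cortical size, lay between -0.17 and -0.10 in DKO against WT, and Nusap1 lay at 0.07.

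Among genes of chromosome structure, Top2a, the topoisomerase that untangles sister chromatids, had the highest level per length of the 45 genes, 374 TPM in WT. It was 616.3, 602.6 and 624.2 CPM in WT, 537.5, 571.7 and 422.5 in Smarca1 KO and 575.5, 510.4 and 509.7 in DKO, with all WT libraries highest (log2 fold change -0.21 in DKO against WT, edgeR adjusted p = 0.18). Mki67, which encodes the proliferation antigen Ki-67, was 539.4, 528.2 and 503.7 CPM in WT, 504.9, 524.8 and 399.3 in Smarca1 KO and 512.7, 448.4 and 450.6 in DKO. Mki67 groups overlapped, and its log2 fold change was -0.15 (SE 0.0951) in DKO against WT and -0.02 (SE 0.0951) against Smarca1 KO. Smc2, a core subunit shared by both condensins, was 152.2, 148.5 and 152.1 CPM in WT, 129.7, 128.6 and 100.8 in Smarca1 KO and 137.3, 125.9 and 124.2 in DKO, again with WT highest (edgeR adjusted p = 0.113 in DKO against WT and 0.134 in Smarca1 KO against WT). Ncapd2, a subunit of condensin I, was 243.2, 239.4 and 241.4 CPM in WT, 217.8, 231.4 and 177 in Smarca1 KO and 299, 287.5 and 221.3 in DKO. DKO replicate 3 separated it from the other DKO libraries and lay among the Smarca1 KO values, and the log2 fold change against Smarca1 KO was 0.37 (edgeR adjusted p = 0.129). Without that DKO library Ncapd2 was called higher in DKO than in Smarca1 KO. Smc4 and Ncaph lay at -0.12 and -0.16 in DKO against WT.

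Because most genes of the module moved together from library to library, each was also expressed as its percent share of the summed CPM of the 45 genes. Shcbp1 made up 0.692%, 0.705% and 0.662% of that sum in WT, 0.62%, 0.661% and 0.609% in Smarca1 KO and 0.34%, 0.27% and 0.276% in DKO. Ccnb2 made up 0.914%, 0.916% and 0.987% in WT, 0.972%, 0.906% and 0.947% in Smarca1 KO and 0.618%, 0.661% and 0.663% in DKO. As shares, Smarca1 KO and WT overlapped for Ccnb2, and Smarca1 KO replicate 3 no longer stood apart for it. The ratio of the DKO mean share to the WT mean share was 0.43 for Shcbp1 and 0.69 for Ccnb2, and between 0.91 (Bub1b) and 1.23 (Ncapd2) for the other 43 genes. Against Smarca1 KO it was 0.469 and 0.688, and between 0.856 (Kif11) and 1.2 (Ncapd2) for the others. These shares are a description and no test was made on them.

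**Figure D4:**
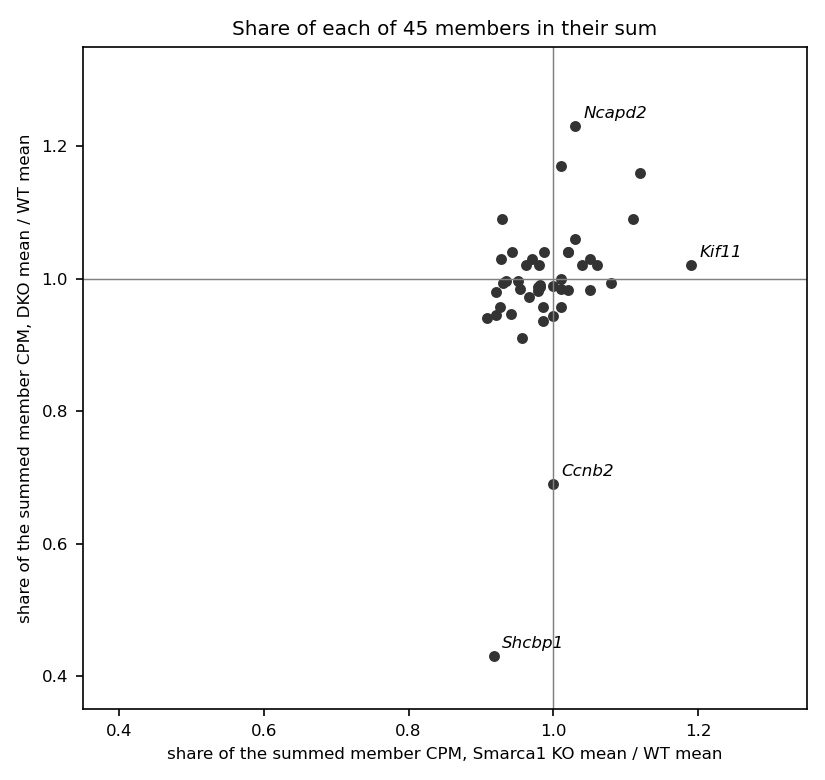
Each point is 1 of the 45 genes, placed by the ratio of its mean share of the summed CPM in Smarca1 KO to that in WT (x axis) and in DKO to that in WT (y axis). Shcbp1 (y 0.43) and Ccnb2 (y 0.69) lie below the other 43 genes, which lie between 0.91 and 1.23.

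Other genes of the cell cycle were read from lists chosen with earlier results known. Of 95 further genes of G2 and mitosis, 3 fell in DKO against WT and 0 rose: Tmpo (log2 fold change -0.32), which encodes a protein of the inner nuclear membrane, the kinase gene Melk (-0.44) and the citron kinase gene Cit (-0.28), with edgeR adjusted p from 0.0226 to 0.0408. Their list had medians of -0.124 in DKO against WT, 0.0464 in DKO against Smarca1 KO and -0.196 in Smarca1 KO against WT. None of the 95 passed in the last 2 comparisons. At an unadjusted p under 0.05 in edgeR, 18 were lower and 2 higher in DKO against WT, beside 14.9% and 16.1% of all genes. In DKO against Smarca1 KO 2 were lower and 7 higher, beside 9.57% and 8.84% of all genes. In Smarca1 KO against WT 33 were lower and 1 higher, beside 9.55% and 9.33% of all genes. Of 23 regulators of late cell cycle transcription (MuvB, E2F, retinoblastoma family, B-Myb, FoxM1 and NF-Y genes), 2 fell in DKO against WT, the E2F partner gene Tfdp2 (-0.29) and the repressor gene E2f8 (-0.34). The NF-Y subunit gene Nfyb fell in DKO against Smarca1 KO (-0.19, edgeR adjusted p = 0.0326). Of 32 genes of G1/S and replication, the thymidylate synthase gene Tyms (-0.38) and the clamp loader gene Rfc3 (-0.20) fell in DKO against WT and none passed in the other comparisons. Of all genes tested, 6.35% were called lower and 5.61% higher in DKO against WT, and 2.66% and 1.73% in DKO against Smarca1 KO. In Smarca1 KO against WT the shares were 0.197% and 0.139%. The few calls in these cell cycle lists are thus not read as a result about the lists. The same shares stand beside the counts of the marker lists below. Medians of the G1/S list were -0.21, 0.0411 and -0.245 in the same order of comparisons.

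The score of a list in a library is the mean difference of its genes' log2 CPM from the mean of the 9 libraries. In Smarca1 KO replicate 3 the score was -0.403 for the 45 genes, -0.321 for the 95 further G2 and mitosis genes and -0.365 for the G1/S genes, the lowest of the 9 libraries in each list. In that library radial glia markers were at -0.103, intermediate progenitor markers at -0.0908 and neuron markers at 0.259. Blood markers were at -0.628 there, meningeal markers at -0.49, endothelial markers at -0.0958, microglia markers at -0.0907 and ventral telencephalon markers at 0.00294. The neuron score was the highest of the 9 libraries and the summed neuron markers were 6712 CPM, beside 5365 and 6189 in Smarca1 KO replicates 1 and 2 and 5173 to 5565 in WT. Smarca1 KO replicate 2 had a neuron score of 0.177 and a score of 0.0303 for the 45 genes. The part of cell composition in the low module of Smarca1 KO replicate 3 was not tested.

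**Figure D5:**
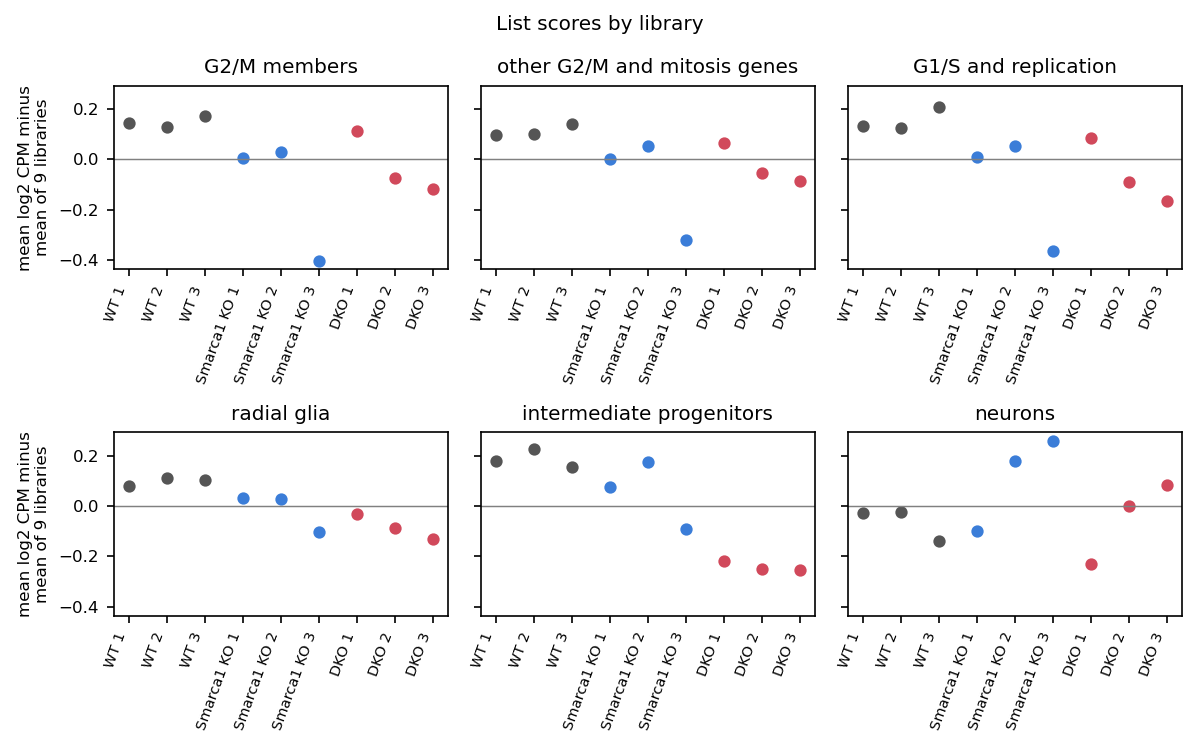
Score of 6 gene lists in each library (points; grey WT, blue Smarca1 KO, red DKO), as the mean log2 CPM of the list's genes minus their mean over the 9 libraries. Smarca1 KO replicate 3 is lowest in the 3 cell cycle lists (-0.403, -0.321 and -0.365) and highest for neurons (0.259), while the 3 DKO libraries are lowest for intermediate progenitors (-0.219 to -0.253).

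Markers of radial glia and intermediate progenitors differed in the DKO libraries too. Of 12 intermediate progenitor markers 6 fell and 0 rose in DKO against WT, among them the neurogenic factor genes Neurod4 (-1.52), Neurog1 (-1.11) and Neurog2 (-0.55) and the matrix gene Mfap4 (-0.51). Against Smarca1 KO 3 fell, Neurod4 (-1.56), Neurog1 (-0.75) and Mfap4 (-0.45). The summed level of the 12 was 1165 to 1179 CPM in DKO, 1191 to 1403 in Smarca1 KO and 1364 to 1403 in WT. Of 18 radial glia markers 5 fell and 3 rose in DKO against WT, with the glycolytic enzyme gene Aldoc (-0.94) and the patterning factor gene Lhx2 (-0.58) lower and the glutamate transporter gene Slc1a3 (0.43) and the glutamine synthetase gene Glul (0.37) higher. Their sum was 3296 to 3573 CPM in DKO, 3167 to 3512 in Smarca1 KO and 3719 to 3824 in WT. Against Smarca1 KO the 1 called radial glia marker was Aldoc (-0.85), and Notch1 (-0.31) was the 1 called in Smarca1 KO against WT. The part of these markers in the levels of Shcbp1 and Ccnb2 was not tested.

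Markers of other cells were read beside these. Of 14 neuron markers, Stmn2 (0.44) and Snap25 (0.50) rose and Fezf2 (-0.45) fell in DKO against WT, and Fezf2 (-0.51) fell in DKO against Smarca1 KO. In Smarca1 KO against WT 0 of the 14 passed. At an unadjusted p under 0.05 in edgeR, 4 were higher (Stmn2 at 0.45 had the smallest) and 0 lower, beside 9.33% and 9.55% of all genes. All 14 log2 fold changes were above 0 with a median of 0.155. Of 9 microglia markers 4 rose in DKO against WT (Cx3cr1, C1qc, C1qa and Trem2, by 0.77 to 1.15) and 2 in DKO against Smarca1 KO (Cx3cr1 0.66 and Trem2 0.81), with sums of 54.0 to 68.3 CPM in DKO and 39.5 to 48.6 elsewhere. Of 10 ventral telencephalon markers Dlx5 (0.30) and Dlx1 (0.30) rose in DKO against WT, and of 10 blood markers Hba-a1 (-0.83, edgeR adjusted p = 0.0498) fell. Log2 fold changes were below 0 in 9 of the 10 blood markers there, with a median of -0.562. At an unadjusted p under 0.05 in edgeR, 4 blood markers were lower and 0 higher, beside 14.9% and 16.1% of all genes. Of the ventral telencephalon markers 6 were higher and 0 lower, with a median of 0.257. No endothelial marker of 8 and no meningeal or mesenchymal marker of 11 tested passed in any comparison, where 0 to 1 of each list had an unadjusted p under 0.05. The meningeal sum was highest in the first replicates of DKO (672 CPM) and Smarca1 KO (620.5 CPM), against 255.2 to 288.9 in the other DKO and Smarca1 KO libraries and 445.7 to 536.5 in WT. Without the 2 highest of these libraries, Shcbp1 in DKO against WT had a log2 fold change of -1.54 (edgeR adjusted p = 0.0024) and Ccnb2 of -0.717 (adjusted p = 0.00705). In DKO against Smarca1 KO Shcbp1 was then at -1.14 (edgeR adjusted p = 0.0134). The call of Ccnb2 was lost there (-0.391, adjusted p = 0.116).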

How the data were processed

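Whole cortical RNA of 9 libraries was sequenced as stranded mRNA libraries, per the labels' protocols. The submitters' processing notes name Salmon 1.4.0 for the authors' transcript quantification, mm10 and, without a role, DESeq2. Per the file headers, each deposited table gives estimated counts, TPM, length and effective length of every transcript. No source used here names the index or library type, so whether counting used strand is unknown.

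The 45 genes and all other lists were chosen with earlier results of these data known. Transcript identifiers were matched to GENCODE M21 (GRCm38; 115977 of 116546 matched, and the others held 0.104% to 0.116% of reads). Estimated counts were summed to genes and rounded. edgeR 4.0.16 (R 4.3.3, limma 3.58.1) was run on all 9 libraries in 1 fit of 3 group means: filterByExpr (15773 genes), TMM (factors 0.991 to 1.02), the quasi-likelihood F test, and Benjamini-Hochberg adjustment over the 15773 genes, and genes under 0.05 were called. The fit's common coefficient of biological variation was 10.2%. A log2 fold change is the first group minus the second. Levels are TMM-scaled CPM. Shares of 31-base words were counted over the annotated transcripts.

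Tested on simulated data made from the counts for DKO against WT (15628 genes), the fit recovered 64 of 100 genes changed by 0.5 and 81 of 100 changed by 1 on the log2 scale, with 14 false calls. Values in every library are given for each called gene, the 4 genes with the smallest p in each comparison and Mki67, Top2a, Ccnb1, Ccnb2, Cdk1, Plk1, Aurkb and Shcbp1. Kif11 is described also as the only gene of the module above 0 in Smarca1 KO against WT. From the other lists up to 4 called genes with the smallest p were named. The 16 alternatives were other size factors, no filter, DESeq2 1.42.0, a fit of the 2 groups alone, effective-length offsets from the deposited TPM and effective lengths, a replicate block, a covariate of Y-linked genes and leaving out each library. 1 more was chosen after seeing the data: leaving out the 2 libraries highest in meningeal markers.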

Additional observations from a re-analysis of the deposited data

How the results depend on the processing

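The calls of Shcbp1 and Ccnb2 in DKO against WT were lost only with the covariate of Y-linked RNA (edgeR adjusted p = 0.176 and 0.298). This covariate follows the groups (R2 = 0.706) although all 9 libraries carry Y-linked RNA. With it the median log2 fold change was 0.109 in DKO against WT and 0.387 in DKO against Smarca1 KO. Then 0 genes of the module were called lower in either, beside 0.0444% and 0.19% of all genes. Genes of the module called lower in DKO against WT were 13 with the 2 groups fitted alone, beside 11.1% of all genes. Those 13 held Cdc25c in place of Ect2, which was among the 13 without Smarca1 KO replicate 3. Without 1 library the genes called lower were 2 to 13, beside 1.76% to 10.4% of all genes. They were 13 without Smarca1 KO replicate 3 (10.4% of all genes) and 2 in each other such fit. In DKO against Smarca1 KO the genes of the module called lower were 0 with the 2 groups alone, beside 0.721% of all genes. They were 1 with effective-length offsets (1.54% of all genes) and 1 with the replicate block (2.09%). Without the 2 libraries highest in meningeal markers 1 was called lower (1.58%), and without 1 library 1 to 2 (1.15% to 2.81%). Genes called higher were 1 with DESeq2 (2.9% of all genes) and 0 to 1 without 1 library (0.623% to 2.14%). In Smarca1 KO against WT 9 were called lower with DESeq2 and 1 (Anln) without the 2 libraries highest in meningeal markers, while the share of all genes called lower was 3.33% and 1.91%, beside 0.197% in the main analysis. The median log2 fold change of the 45 genes in DKO against WT was -0.158 in the main analysis. It was -0.16 with the 2 groups alone and -0.161 without Smarca1 KO replicate 3. Both settings kept every DKO and WT library, from which this median is fitted, so it could hardly move while the calls did. The main analysis shares 1 estimate of the spread over the 3 groups, and a fit of 2 groups alone leaves out the libraries of the third. The cause of the shifts in calls was not tested. The replicate numbers were checked for pairing: same-numbered libraries had correlations of deviations from -0.0632 to 0.35 over 9 pairs, not all of them over 0.1, so the numbers were not taken as pairs. The highest was between the first replicates of Smarca1 KO and DKO, which are also the 2 highest in meningeal markers. The replicate block ended the call of Ccnb2 in DKO against Smarca1 KO (adjusted p = 0.058) and changed no other call of the 45 genes. Over all genes, falls in DKO against WT were 1002 in the main analysis, 1732 with the 2 groups alone, 675 with effective-length offsets and 7 with the covariate. Changes under 0.5 on the log2 scale, as fitted for 43 of the 45 genes in DKO against WT, were not simulated, so the power of the test for them is not known.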

Other observations

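Genes near Shcbp1 and Ccnb2 were also read. Within 250 kb of Ccnb2 4 genes were tested, Sltm, Rnf111, Myo1e and Mindy2, and 0 of them passed edgeR's test in any of the 3 comparisons, with log2 fold changes between -0.0956 and 0.139 in DKO against WT. Within 250 kb of Shcbp1 3 of 12 genes were tested. The ceramide synthase gene Cers4 rose (0.30, edgeR adjusted p = 0.0405) and Gm7451 fell (-0.95, adjusted p = 0.0338) in DKO against WT, and Zfp958 lay at 0.06. In DKO against Smarca1 KO none of the 3 passed, with log2 fold changes between -0.174 and 0.0735. In Smarca1 KO against WT none passed either, with Gm7451 at -0.77 and Cers4 at 0.23.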
